A study of Mus musculus with 20 samples.

Results

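Intercalated cells are the acid-base cells of the connecting tubule and collecting duct. Type A cells secrete protons into urine through a vacuolar H+-ATPase at the luminal membrane and return bicarbonate to blood through the anion exchanger AE1, whereas type B cells secrete bicarbonate through pendrin. The forkhead factor FOXI1 is required for both types, and ammonia leaves through the Rhesus glycoproteins. The 10 genes described here have a known place in these cells and were picked by name when earlier results of these data were known, so counts of them are descriptions. All 10 were found by symbol among the 24411 genes of the count table. They encode the factor (*Foxi1*), the bicarbonate and chloride exchangers (*Slc4a1*, *Slc26a4*, *Slc4a9*), 4 proton pump subunits with kidney-enriched forms (*Atp6v1g3*, *Atp6v0d2*, *Atp6v1b1*, *Atp6v0a4*) and the ammonia channels (*Rhcg*, *Rhbg*). All 10 passed the filter on low counts in each comparison.

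Whole-kidney RNA was sequenced from 20 C57BL/6 mice, 1 library per mouse, and each sex gave 5 controls and 5 mutants. Mutants carried *Pkd2*fl/fl, *Pax8*rtTA and *TetO*Cre, and controls carried the floxed *Pkd2* alleles without *Pax8*rtTA or without *TetO*Cre. Every mouse, controls included, received doxycycline (DOX) at 50 mg/kg from P27 to P29, and kidneys were taken at P125. *Pax8* is active along the whole tubule, so the deletion is not confined to the collecting duct. Total counts ran from 11307741 to 19324073 per library. Levels are CPM, counts scaled by library size with TMM factors, and KBW is the labelled kidney weight, taken to be that of 1 kidney, as a percentage of body weight.

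KBW was 0.649, 0.678, 0.599, 0.641 and 0.896% in the 5 male controls and 2.15, 1.22, 1.79, 1.54 and 1.71% in the 5 male mutants. In the same order of mice it was 0.645, 0.605, 0.599, 0.555 and 0.672% in female controls and 1.38, 1.24, 1.46, 0.836 and 1.00% in female mutants. Mutants lay above the controls of their sex, and female mutants 4 and 5 were closest to control values.

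The library of female mutant 4 stood apart. It had 14850 detected genes and 76 genes with exactly 1 count, against 16776 to 17724 detected genes and 708 to 859 genes with 1 count in the other libraries. Its total, 11307741, was also the lowest of the 20, and its KBW was the lowest of the mutants. Whether its counts were made or filtered in the same way as those of the other libraries is not stated and was not tested, and this bears on every value of this mouse given here. Calls of the 10 genes that changed without this mouse are given both ways.

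*Pkd2*, the deleted gene (chr5:104459450-104505819, plus strand, GRCm38), checked the labels. Its level was 272, 298, 250.3, 332 and 303 CPM in male controls and 109.7, 124, 109.7, 133 and 120.1 CPM in male mutants. It was 193, 306, 291, 218 and 278 CPM in female controls and 150.1, 133, 94.7, 182 and 166 CPM in female mutants. Every mutant lay below every control of its sex. *Pkd2* fell in males (log2 fold change -1.32, SE 0.08, edgeR adjusted p = 2.18e-05) and in all mice together (log2 fold change -1.06, SE 0.12, edgeR adjusted p = 9.7e-06). In females the value missed the threshold of 0.01 (log2 fold change -0.80, SE 0.18, edgeR adjusted p = 0.0276) and passed it without female mutant 4 (edgeR adjusted p = 0.00909). In females it passed as well with all 20 mice in 1 fit (edgeR adjusted p = 0.00117) and with DESeq2 (DESeq2 adjusted p = 0.000428).

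With both sexes in 1 fit, and each of the 6 combinations of sex and litter as a term, 8 of the 10 genes were lower in mutants, against 5.86% of all genes tested. The median log2 fold change of the 10 was -0.56, beside -0.01 over all genes. *Foxi1* and *Atp6v0a4* did not pass. The count was also 8 without female mutant 4, and 7 without male control 4. Over all genes the calls in either direction numbered 2252, with 2994 without female mutant 4 and 1656 without male control 4. A gene is called where the edgeR quasi-likelihood test gives a Benjamini-Hochberg adjusted p below 0.01 over all genes tested. In whole kidney, fewer intercalated cells and less RNA per cell cannot be told apart. The libraries also do not show which cells made each RNA, so a part from other cells cannot be told apart either.

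*Slc4a1* (chr11:102348824-102366203, minus strand), which encodes AE1, had the largest fold change of the 10. Its level was 43.6, 45.2, 52.0, 60.3 and 50.3 CPM in male controls and 12.2, 16.2, 17.1, 24.7 and 23.3 CPM in male mutants. In females it was 85.7, 59.4, 59.1, 80.4 and 72.7 CPM in controls and 28.6, 34.9, 15.7, 56.4 and 40.8 CPM in mutants. The groups did not overlap within either sex, and female mutant 4 came closest to the controls. *Slc4a1* fell in all mice together (log2 fold change -1.26, SE 0.18, edgeR adjusted p = 6.32e-05). It fell in males (log2 fold change -1.54, SE 0.13, edgeR adjusted p = 0.00016), in each of the 10 fits that left out a mouse. In females it did not pass (log2 fold change -1.01, SE 0.27, edgeR adjusted p = 0.0553) but did without female mutant 4 (edgeR adjusted p = 0.00478). It passed there too with all 20 mice in 1 fit (edgeR adjusted p = 0.00592) and with DESeq2 (DESeq2 adjusted p = 0.00386).

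AE1 is also the band 3 protein of red cells. Among erythroid genes *Alas2*, the erythroid heme synthesis enzyme, could be tested. The globin genes *Hbb-bs*, *Hbb-bt*, *Hba-a1* and *Hba-a2*, near-identical in pairs and so uncertain in counting, were listed at 0 in all mice. *Rhag* was too low to test, and *Epb42* was not among the genes analysed here. *Alas2* measured 18.1, 22.6, 20.6, 14.9 and 17.2 CPM in male controls and 8.99, 3.76, 1.64, 1.91 and 2.99 CPM in male mutants. It measured 14.1, 20.0, 16.1, 8.81 and 8.35 CPM in female controls and 3.58, 1.98, 2.99, 2.33 and 4.46 CPM in female mutants. Every mutant lay below every control of its sex, male mutant 1 being the highest mutant. *Alas2* fell in all mice together (log2 fold change -2.16, SE 0.22, edgeR adjusted p = 3.77e-06). The part of red cells in the *Slc4a1* difference was not tested.

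*Slc4a9* (chr18:36528147-36556273, plus strand) encodes AE4, a basolateral transporter of type B cells. Its level was 109, 112, 108, 105 and 97.5 CPM in male controls and 30.4, 76.4, 46.1, 56.0 and 53.0 CPM in male mutants. Female controls had 128, 175, 133, 139 and 132 CPM and female mutants 81.9, 63.5, 45.8, 109 and 127 CPM. Neither sex showed overlap, although female mutant 5 reached almost the lowest female control. *Slc4a9* fell in all mice together (log2 fold change -0.88, SE 0.16, edgeR adjusted p = 0.000684) and in males (log2 fold change -1.02, SE 0.19, edgeR adjusted p = 0.00423). The call in males was lost without male controls 1, 2, 3, 4 and 5 or male mutants 3 and 5 in turn (edgeR adjusted p = 0.0108 to 0.0296). The value in females did not pass (log2 fold change -0.75, SE 0.22, edgeR adjusted p = 0.079), nor did it without female mutant 4 (edgeR adjusted p = 0.0228).

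*Slc26a4* (chr12:31519827-31559969, minus strand) encodes pendrin, the luminal exchanger that marks type B cells. Male controls had 117, 109.6, 121, 135 and 105 CPM and male mutants 54.5, 105, 84.1, 87.5 and 90.9 CPM. Female controls had 137, 171, 131, 146 and 138 CPM and female mutants 95.7, 73.8, 53.2, 122 and 111 CPM. Male mutant 2 reached the range of the male controls, and the female groups did not overlap. *Slc26a4* fell in all mice together (log2 fold change -0.59, SE 0.13, edgeR adjusted p = 0.00312), a call lost without male control 4 (edgeR adjusted p = 0.0103). The value in males did not pass (log2 fold change -0.51, SE 0.14, edgeR adjusted p = 0.0284) but did without male mutant 2 (edgeR adjusted p = 0.00193). In females it did not pass (edgeR adjusted p = 0.0727, and 0.0118 without female mutant 4). With DESeq2 the male value passed (DESeq2 adjusted p = 0.00525).

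The subtype genes were also set against *Atp6v1b1*, a pump subunit of both cell types, as a difference of log2 CPM within each mouse, described without a test. *Slc4a1* minus *Atp6v1b1* was -1.31 ± 0.20 (mean ± SD, n = 5) in male controls and -2.22 ± 0.31 in male mutants, with no overlap. It was -1.29 ± 0.33 in female controls and -1.82 ± 0.31 in female mutants, which overlapped. *Slc26a4* minus *Atp6v1b1* averaged -0.09 ± 0.12 in controls and -0.04 ± 0.09 in mutants among males. The corresponding female values were -0.26 ± 0.16 and -0.39 ± 0.08. For pendrin the groups overlapped in both sexes. *Slc4a9*, the other type B gene, was added to this description with the values above known. *Slc4a9* minus *Atp6v1b1* was -0.23 ± 0.11 in controls and -0.76 ± 0.20 in mutants among males, with no overlap. Among females it was -0.30 ± 0.17 and -0.52 ± 0.21, with overlap.

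Among the proton pump subunits, *Atp6v1b1* (chr6:83742990-83758855, plus strand) encodes the B1 subunit of the catalytic domain. It measured 135, 116, 122, 128 and 121 CPM in male controls and 61.3, 104, 81.9, 93.8 and 89.6 CPM in male mutants. It measured 155, 179, 182, 171 and 180.2 CPM in female controls and 127, 107, 68.1, 151 and 144 CPM in female mutants. The groups did not overlap in either sex, male mutant 1 and female mutant 3 being lowest. *Atp6v1b1* fell in all mice together (log2 fold change -0.54, SE 0.12, edgeR adjusted p = 0.00207) and in males (log2 fold change -0.55, SE 0.12, edgeR adjusted p = 0.00942). The call in males was lost without male controls 1, 2, 3, 4 and 5 or male mutants 3, 4 and 5 in turn (edgeR adjusted p = 0.0157 to 0.0515). It was also lost with all 20 mice in 1 fit (edgeR adjusted p = 0.0353) and with at least 10 counts in every mouse (edgeR adjusted p = 0.0102). The value in females did not pass (log2 fold change -0.53, edgeR adjusted p = 0.106, and 0.0229 without female mutant 4).

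*Atp6v1g3* (chr1:138273738-138289462, plus strand), the G3 subunit of the stalk, ranged over 77.0 to 115 CPM in male controls and 44.7 to 73.1 CPM in male mutants. The female ranges were 85.9 to 128 CPM in controls and 35.8 to 84.3 CPM in mutants. It fell in all mice together (log2 fold change -0.63, SE 0.12, edgeR adjusted p = 0.00108). *Atp6v0d2* (chr4:19876841-19922605, minus strand), the d2 subunit of the membrane domain, ranged over 46.7 to 53.6 CPM in male controls and 29.4 to 40.9 CPM in male mutants. Its female ranges, 58.8 to 77.4 CPM in controls and 39.0 to 62.9 CPM in mutants, overlapped through female mutant 4. It fell in all mice together (log2 fold change -0.52, SE 0.09, edgeR adjusted p = 0.000221). Both genes fell in males (edgeR adjusted p = 0.00659 for *Atp6v1g3* and 0.00307 for *Atp6v0d2*). For *Atp6v1g3* that call was lost without male controls 1, 3, 4 and 5 or male mutants 3, 4 and 5 in turn (edgeR adjusted p = 0.0136 to 0.0509), and with all 20 mice in 1 fit (edgeR adjusted p = 0.0137). For *Atp6v0d2* it was lost without male control 4 (edgeR adjusted p = 0.0238). In females neither *Atp6v0d2* (log2 fold change -0.50, edgeR adjusted p = 0.0531) nor *Atp6v1g3* (log2 fold change -0.57, edgeR adjusted p = 0.0948) passed. There *Atp6v0d2* passed without female mutant 4 (edgeR adjusted p = 0.00555) and with all 20 mice in 1 fit (edgeR adjusted p = 0.00585). Without female mutant 4 *Atp6v1g3* did not pass (edgeR adjusted p = 0.0602).

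*Atp6v0a4* (chr6:38048483-38124586, minus strand), the a4 subunit of the membrane domain, was the 1 subunit of the 4 that did not pass in all mice. Its level was 321, 302, 288, 306 and 322 CPM in male controls and 277, 319, 292, 289 and 337 CPM in male mutants. In females it was 391, 396, 339, 412 and 399 CPM in controls and 278, 263, 243, 389 and 329 CPM in mutants. The male groups overlapped, and among female mutants only mutant 4 reached the controls. The change did not pass in males (log2 fold change -0.03, SE 0.06, edgeR adjusted p = 0.794), in females (log2 fold change -0.35, SE 0.13, edgeR adjusted p = 0.153) or in all mice together (log2 fold change -0.20, SE 0.09, edgeR adjusted p = 0.1). The male value turned positive without male mutant 1, and the female value did not pass without female mutant 4 (edgeR adjusted p = 0.0118). Its exons overlap those of *Tmem213* on the opposite strand and of *D630045J12Rik* on its own strand, and since the strand used in counting is not given in the sources used here, its counts are uncertain to that extent.

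The pump also has subunits made in most cells. Of 17 such genes, 16 could be tested and 1 was lower in all mice together, *Atp6v1a*, the catalytic A subunit and the highest of the list in CPM, which is not scaled by length (log2 fold change -0.34, SE 0.08, edgeR adjusted p = 0.00469). That call was lost without male control 4 or female controls 1, 2, 4 and 5 or female mutants 1 and 5 in turn (edgeR adjusted p = 0.01 to 0.0131). Of all genes tested 5.86% were called lower, so 1 of 16 is near that share. The list's median log2 fold change was -0.07. *Atp6v1b2*, the widely expressed partner of *Atp6v1b1*, had a log2 fold change of -0.08 in all mice together (edgeR adjusted p = 0.535). *Atp6v1g1*, the widely expressed partner of *Atp6v1g3*, had a log2 fold change of -0.07 in all mice together (edgeR adjusted p = 0.594). *Atp6v0d1*, the widely expressed partner of *Atp6v0d2*, had a log2 fold change of 0.03 in all mice together (edgeR adjusted p = 0.754). *Atp6v0a1*, the widely expressed partner of *Atp6v0a4*, had a log2 fold change of 0.01 in all mice together (edgeR adjusted p = 0.938). None of these 4 passed, and the difference between a subunit and its partner was not tested.

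*Rhbg* (chr3:88242874-88254709, minus strand) encodes the basolateral ammonia channel. Male controls had 41.5, 43.4, 51.7, 53.7 and 48.6 CPM and male mutants 17.2, 34.9, 26.3, 26.7 and 30.0 CPM. Female controls had 69.7, 71.0, 58.6, 90.3 and 90.4 CPM and female mutants 43.9, 37.5, 28.8, 47.8 and 49.3 CPM. Every mutant lay below every control of its sex. *Rhbg* fell in all mice together (log2 fold change -0.86, SE 0.12, edgeR adjusted p = 4.44e-05) and in males (log2 fold change -0.85, SE 0.16, edgeR adjusted p = 0.00394). The call in males was lost without male controls 3, 4 and 5 or male mutant 3 in turn (edgeR adjusted p = 0.0101 to 0.0343). In females the value missed the threshold (log2 fold change -0.86, SE 0.15, edgeR adjusted p = 0.0121), and it passed without female mutant 4 (edgeR adjusted p = 0.00311). It also passed with no filter on low counts, without the litter term and with all 20 mice in 1 fit (edgeR adjusted p = 0.00599, 0.00957 and 0.00159), and with DESeq2 (DESeq2 adjusted p = 1.02e-05). Another annotated gene, *Gm38392*, overlaps it and was not analysed here.

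*Rhcg* (chr7:79593363-79617657, minus strand), the ammonia channel of both membranes, ranged over 92.8 to 127 CPM in male controls and 71.0 to 83.7 CPM in male mutants. It ranged over 150.4 to 184 CPM in female controls and 102 to 153 CPM in female mutants. The males did not overlap and the females did, through mutants 4 and 5. *Rhcg* fell in all mice together (log2 fold change -0.43, SE 0.08, edgeR adjusted p = 0.000376) and in males (log2 fold change -0.50, SE 0.09, edgeR adjusted p = 0.00326). The call in males was lost without male control 4 (edgeR adjusted p = 0.0224). In females the value did not pass (edgeR adjusted p = 0.084, and 0.0171 without female mutant 4).

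*Foxi1* (chr11:34204338-34208089, minus strand), the factor upstream of the program, measured 26.1, 39.2, 27.6, 29.9 and 25.3 CPM in male controls and 15.2, 26.1, 25.0, 28.6 and 21.3 CPM in male mutants. It measured 35.3, 50.2, 49.2, 36.5 and 37.7 CPM in female controls and 28.1, 27.0, 24.5, 37.4 and 47.2 CPM in female mutants. The groups overlapped in both sexes, with male control 2 and female mutant 5 high for their groups. The lower value did not pass in all mice together (log2 fold change -0.38, SE 0.13, edgeR adjusted p = 0.0352), in males (edgeR adjusted p = 0.109) or in females (edgeR adjusted p = 0.271, and 0.165 without female mutant 4).

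**Figure D1:**
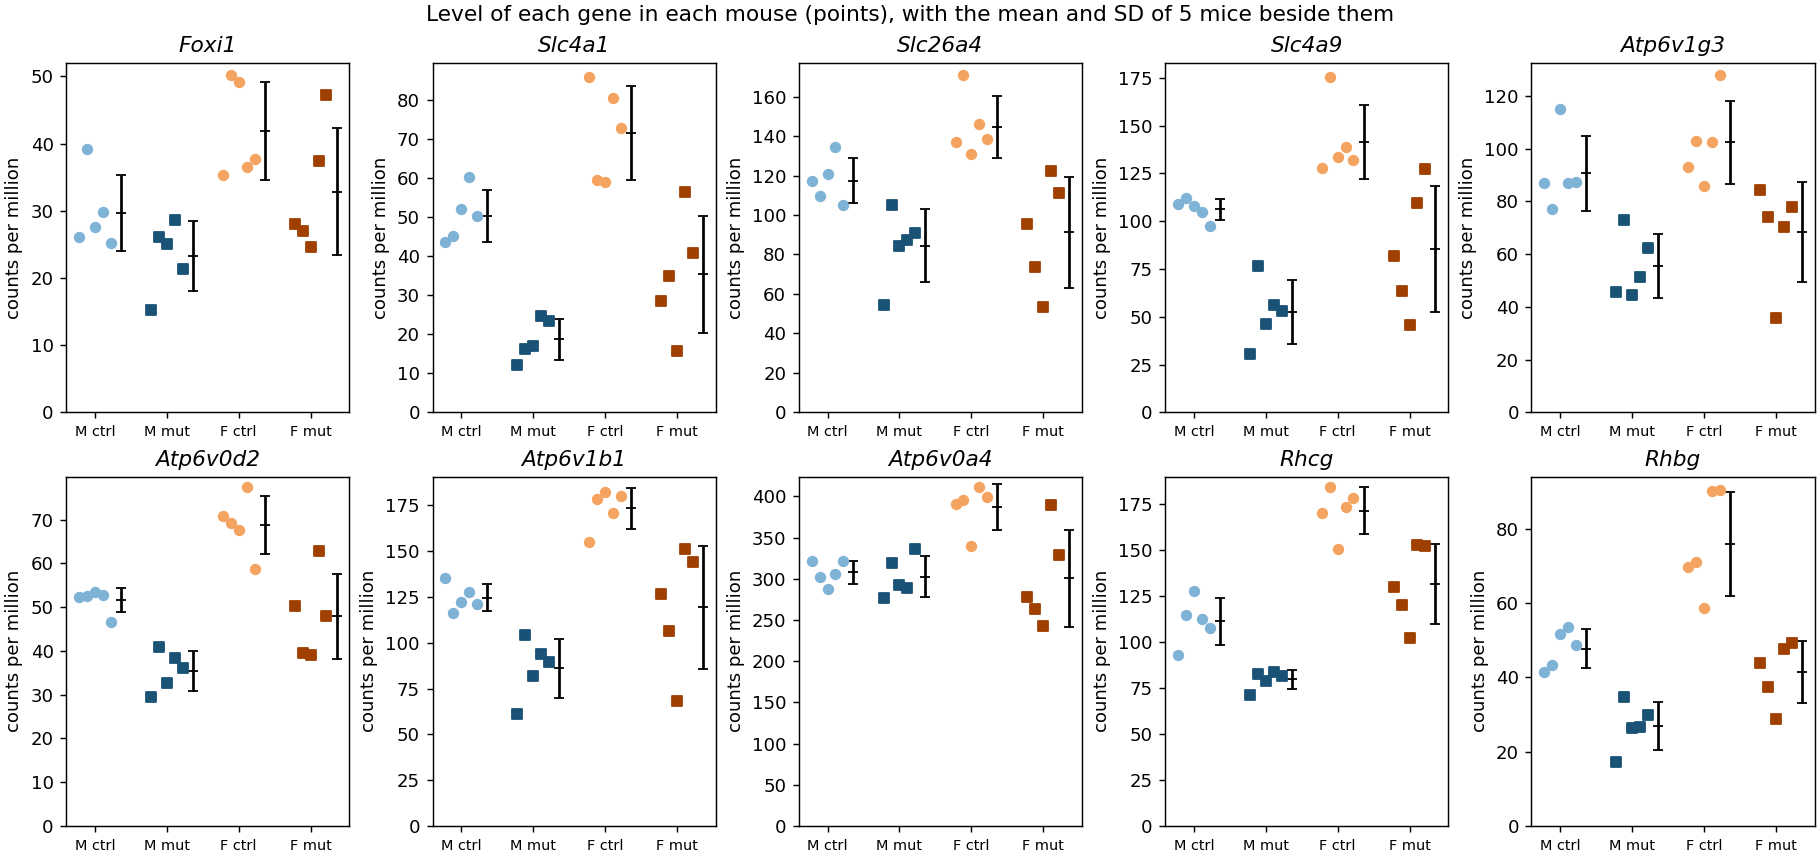
CPM (vertical axis, from 0) of each of the 10 genes in each mouse, in male (M) and female (F) controls (ctrl) and mutants (mut). Points are mice and bars the mean and SD of 5 mice. *Slc4a1* and *Rhbg* mutants lie below the controls of their sex, and the male groups overlap for *Atp6v0a4*.

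Within males alone, 7 of the 10 genes were lower in mutants, against 3.20% of all genes, and in 7 every mutant lay below every control, against 6.56%. The called count was 4 without male control 1, 3 without male control 3, 1 without male control 4 and 3 without male control 5. Without male mutant 3 it was 3, and without male mutant 5 it was 4. The calls over all genes, in either direction, numbered 1185 and were fewer in the same fits: 518 without male control 1, 477 without male control 3, 187 without male control 4, 738 without male control 5, 620 without male mutant 3 and 758 without male mutant 5. Without male mutant 2 the calls over all genes rose to 1863, with 8 of the 10. They were 585 without male control 2, 781 without male mutant 4 and 884 without male mutant 1, with 5, 5 and 7 of the 10. Male controls 4 and 5 were each the sole male control of their litter. Litter was a term, so without male control 4 the male mutants 3 and 4 had no control of their litter. Without male control 5 the same was true of male mutant 5. All 10 estimates in males were below 0.

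Within females no gene of the 10 passed (edgeR), against 0.180% of all genes, while 9 had an unadjusted p below 0.05, as did 2979 of all 14439 genes. DESeq2 called 2 of the 10 and 928 genes in all. In 6 of the 10 every mutant lay below every control, against 3.33% of all genes. Without female mutant 4 the edgeR count was 3, namely *Slc4a1*, *Atp6v0d2* and *Rhbg*, while the calls over all genes, in either direction, went from 92 of 14439 to 866 of 14595. Leaving out any other female lowered the calls over all genes, to between 3 without female control 2 and 57 without female mutant 3. With all 20 mice in 1 fit they numbered 856. The median log2 fold change of the 10 was -0.55 in females and -0.55 in males, and -0.65 in females without mutant 4.

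Whether the genotype difference itself differed between the sexes was asked with an interaction term. It was called for 0 of the 10 genes and for 0.00% of all genes by edgeR, with 618 of 14820 genes at an unadjusted p below 0.05 and 18 called by DESeq2, none of the 10 among them. *Atp6v0a4* was the one of the 10 with an unadjusted p below 0.05 (difference of log2 fold changes, male minus female, 0.35, SE 0.16, edgeR adjusted p = 1). Without female mutant 4 its term did not pass either (edgeR adjusted p = 0.248). In simulated counts this term missed most genes made to differ, so a count of 0 does not show that the sexes respond alike.

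Litter was followed through the difference of mean log2 CPM between mutants and controls of the same sex and litter, 6 values for each gene. Of 60 values, 58 were below 0. Of the edgeR log2 fold changes of all genes tested, 50.4% were below 0 in males and 50.5% in females. The 60 values come from the same mice and are not independent. The exceptions were 1 value each for *Foxi1* and *Atp6v0a4*. For *Slc4a1* the 6 values ran from -1.73 to -0.83, and for *Rhbg* from -1.02 to -0.67. Some litters held a single mouse of a group.

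**Figure D2:**
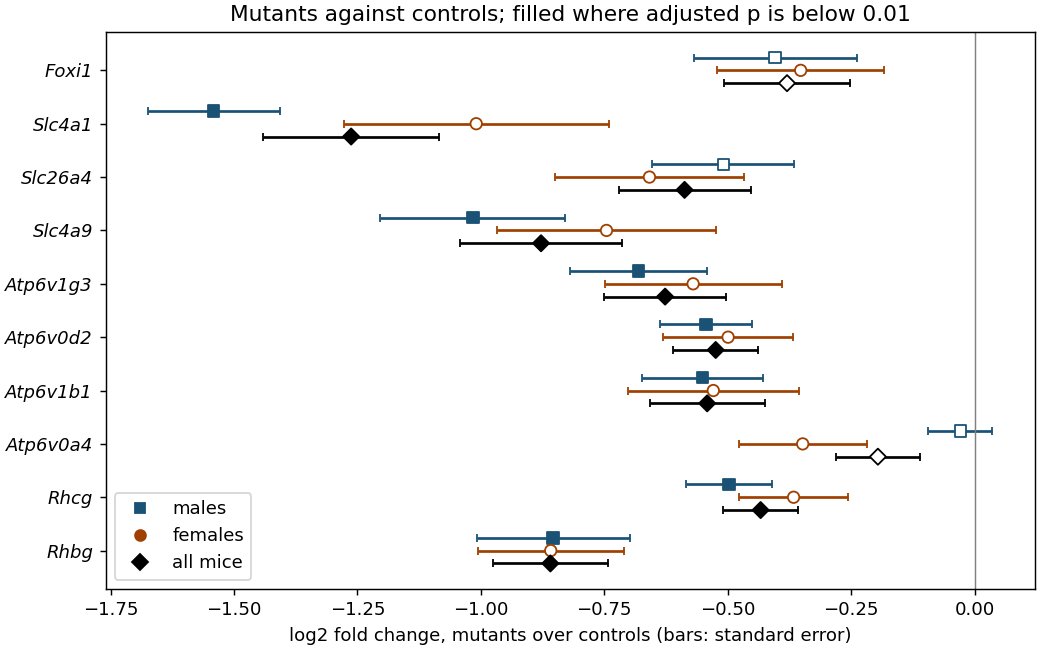
Log2 fold change of mutants over controls (horizontal axis) for each gene, in males (squares), females (circles) and all mice (diamonds), with bars for the standard error. Filled symbols passed an adjusted p of 0.01 by edgeR: 7 genes in males, 0 in females and 8 in all mice.

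Sex was compared within each genotype. In controls 4 of the 10 genes were lower in males, against 9.02% of all genes: *Rhcg* (log2 fold change -0.59, SE 0.10, edgeR adjusted p = 0.000746), *Rhbg* (log2 fold change -0.58, SE 0.13, edgeR adjusted p = 0.00454), *Atp6v1b1* (log2 fold change -0.40, SE 0.07, edgeR adjusted p = 0.00151) and *Atp6v0d2* (log2 fold change -0.36, SE 0.07, edgeR adjusted p = 0.00183). The count was 2 without male control 4, 2 without female control 1, 7 with DESeq2 and 7 without the litter term, and 2 with all 20 mice in 1 fit. Over all genes the calls in either direction numbered 2510, and in those fits, in the same order, 1223, 1544, 3025, 3088 and 1700. Among lists described below, 5 of 10 principal cell genes were lower in male controls (median log2 fold change -0.43). So were 5 of 6 genes of the distal convoluted tubule and thick ascending limb (median -0.50). Proximal tubule genes gave 0 of 6 lower and 2 higher, and pump subunits made in most cells 0 of 16 lower. The call was lost without male controls 1, 2, 4 and 5 or female controls 1 and 5 in turn (edgeR adjusted p = 0.0104 to 0.0291) for *Rhbg*. It was lost without male control 4 (edgeR adjusted p = 0.0213) for *Atp6v1b1* and without male control 4 or female control 1 in turn (edgeR adjusted p = 0.0194 to 0.0229) for *Atp6v0d2*. With all 20 mice in 1 fit it was lost for both (edgeR adjusted p = 0.0556 and 0.02). The genes added with DESeq2 and without the litter term were *Slc4a1*, *Slc4a9* and *Atp6v0a4*. Leaving out 1 mouse added *Foxi1* without male control 2 (edgeR adjusted p = 0.00974), *Slc4a1* without male control 4 (edgeR adjusted p = 0.00704), *Slc4a9* without female control 2 (edgeR adjusted p = 0.00869) and *Atp6v0a4* without female control 3 (edgeR adjusted p = 0.00464). In mutants *Rhcg* alone was called by edgeR (log2 fold change -0.70, SE 0.12, edgeR adjusted p = 0.00406), against 1.84% of all genes called lower. That call was lost without male mutants 3 and 5 or female mutants 1 and 5 in turn (edgeR adjusted p = 0.0199 to 0.0307) and held without female mutant 4 (edgeR adjusted p = 0.00268). Without female mutant 3 the count was 2, *Slc4a1* being added (edgeR adjusted p = 0.00469). A single fit of all 20 mice called 2, *Rhbg* being added (edgeR adjusted p = 0.00954). Over all genes the mutant calls in either direction went from 782 to 351 and 260 without male mutants 3 and 5, 246 and 257 without female mutants 1 and 5, 990 without female mutant 3 and 2353 in the single fit. Without female mutant 4 they numbered 1330.

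The 10 mutants were then ordered by kidney size. For all 10 genes log2 CPM was negatively related to KBW over the 10 mutants, with Pearson r from -0.924 to -0.470 and a median of -0.858, beside a median of 0.0248 over the 14416 genes tested. No gene of the 10 and no gene at all passed 0.01 after adjustment over all genes, while 8 of the 10 and 2168 of all genes had an unadjusted two-sided permutation p below 0.05. For *Rhbg* Pearson r was -0.924 (permutation p = 0.00033, adjusted 0.101) and Spearman rho -0.903 (permutation p = 0.00073, adjusted 0.185). For *Slc4a9* Pearson r was -0.923 (permutation p = 0.00028, adjusted 0.101) and Spearman rho -0.879 (permutation p = 0.00191, adjusted 0.209). For *Foxi1* Pearson r was -0.880 (permutation p = 0.00133, adjusted 0.111) and Spearman rho -0.770 (permutation p = 0.0126, adjusted 0.281). For *Atp6v0a4*, the weakest of the 10 with the sexes pooled, Pearson r was -0.470 (permutation p = 0.169, adjusted 0.516) and Spearman rho -0.370 (permutation p = 0.295, adjusted 0.669).

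Male mutant 1 and female mutant 4 were farthest from the median KBW. Without them r was -0.830 for *Rhbg*, -0.844 for *Slc4a9* and -0.746 for *Foxi1*, with exact permutation p of 0.0119, 0.00697 and 0.0215 (adjusted 0.686 for each). For *Slc26a4* r went from -0.686 to -0.314 and for *Slc4a1* from -0.809 to -0.555, with exact permutation p of 0.458 and 0.157 and so these relations did not hold over the pooled mutants without both mice. With 1 of them left out, r for *Slc4a1* was -0.734 without male mutant 1 (permutation p = 0.0254) and -0.717 without female mutant 4 (permutation p = 0.0287). For *Slc26a4* r was -0.513 without male mutant 1 alone (permutation p = 0.158) and -0.639 without female mutant 5 alone (permutation p = 0.0619). For *Atp6v0a4* r went to -0.167 without female mutant 4 (permutation p = 0.668) and to -0.0712 without both (exact permutation p = 0.864). After the mean of each sex was subtracted from both measures r was -0.838 for *Slc26a4* (exact permutation p = 0.00424, adjusted 0.111) and -0.710 for *Atp6v0a4* (exact permutation p = 0.0128, adjusted 0.131), with the 10 genes between -0.888 and -0.568. Without female mutant 4 alone, 7 of the 10 and 1518 of all genes had an unadjusted permutation p below 0.05, *Slc26a4* not among them (r = -0.586, permutation p = 0.0995). Litters held 3, 5 and 2 mutants, too few for a value within each.

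A slope on KBW with sex as a term gave estimates below 0 for all 10, with a median of -1.02, beside -0.06 over all genes. Among lists described below, it was below 0 for 6 of 6 proximal tubule genes (median -0.99). For the distal convoluted tubule and thick ascending limb it was below 0 for 4 of 6 (median -0.72), and for principal cells 5 of 10 (median -0.03). It was below 0 for 0 of 10 macrophage and 0 of 6 injury genes (medians 2.57 and 3.44). The slope was called by edgeR for 0 of the 10 and 0.00% of all genes, with 3212 of 14416 genes at an unadjusted p below 0.05. Over all genes edgeR called 76 without male mutant 5, 10 with sex and litter as terms and 2 without male mutant 2. None of the 10 was among them. DESeq2 called 5 of the 10 and 577 genes in all. Over all mutants the steepest slope was that of *Slc4a9* (log2 change per percentage point of KBW -1.61, SE 0.26, edgeR adjusted p = 0.0271). Without female mutant 4 it was -1.69 (edgeR adjusted p = 0.119), and no slope of the 10 passed. Without male mutant 2 *Slc4a1* was steepest, at -2.12 (edgeR adjusted p = 0.0242) against -1.74 for *Slc4a9*. The genes called by DESeq2 were *Foxi1*, *Slc26a4*, *Slc4a9*, *Atp6v1b1* and *Rhbg*. In simulated counts the edgeR slope missed nearly all genes made to change, so its count of 0 does not show that a relation is absent.

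**Figure D3:**
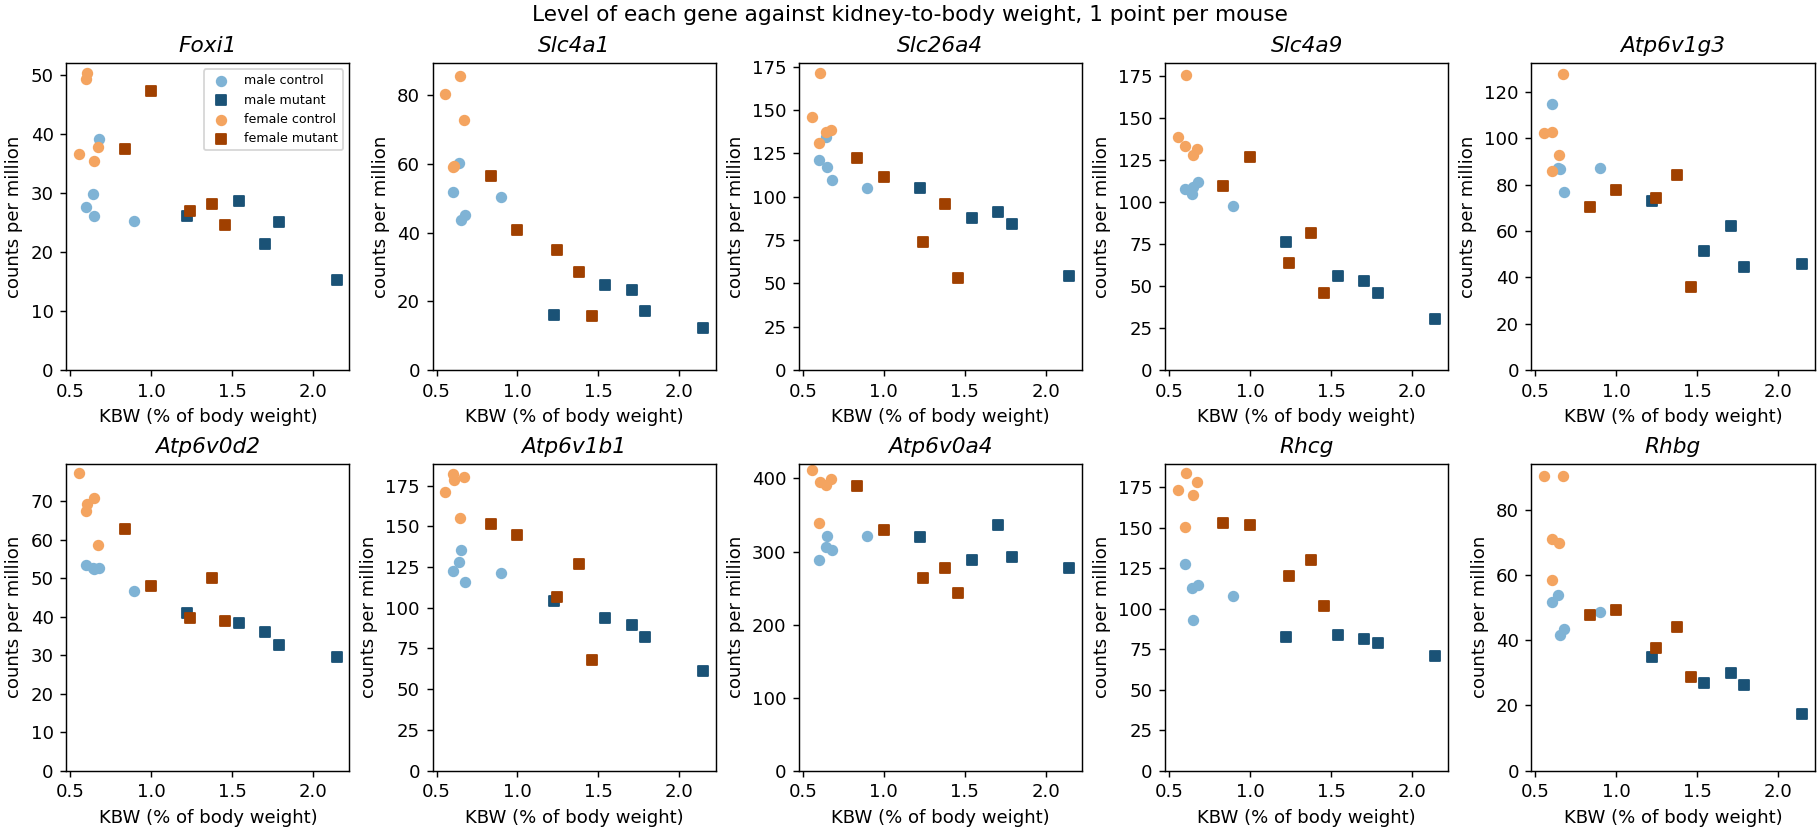
CPM (vertical axis, from 0) of each gene against KBW in percent (horizontal axis), 1 point per mouse, colored by group. Among mutants, *Rhbg* and *Slc4a9* are lower at higher KBW, and with the sexes pooled *Atp6v0a4* shows the weakest relation.

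Levels were compared between genes per kilobase of exon. In female controls *Atp6v0a4*, at 77.9 ± 5.63 CPM per kb (mean ± SD, n = 5), and *Rhcg*, at 76.7 ± 5.71 CPM per kb, were highest and overlapped. *Atp6v1g3* (54.2 ± 8.41 CPM per kb) overlapped both *Rhcg* above it and *Slc26a4* (46.5 ± 5.04 CPM per kb) below it. *Atp6v1b1* (39.6 ± 2.55 CPM per kb) and *Rhbg* (39.2 ± 7.22 CPM per kb) overlapped each other but not *Atp6v0d2* below. *Rhbg* also overlapped *Slc26a4*, and *Atp6v1b1* did not. Then came *Atp6v0d2* at 25.3 ± 2.48 CPM per kb, *Slc4a9* at 22.1 ± 3.03 CPM per kb, *Foxi1* at 17.7 ± 3.09 CPM per kb and *Slc4a1* at 14.6 ± 2.47 CPM per kb, each overlapping the next. Male controls gave the same order, with *Atp6v0a4* at 61.9 ± 2.85 CPM per kb above every value of *Rhcg* at 49.7 ± 5.62 CPM per kb. In mutants of both sexes *Foxi1* stood above *Slc4a9*, with overlap, and *Slc4a1* was lowest, at 3.82 ± 1.07 CPM per kb in males and 7.22 ± 3.08 in females.

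Another 17 genes of intercalated cells gave 9 of 17 lower and 0 higher, with a median log2 fold change of -0.49 in all mice together, beside 5.86% of all genes called lower and 10.0% called higher. They included *Insrr*, an insulin receptor relative that responds to alkali (log2 fold change -0.82, SE 0.17, edgeR adjusted p = 0.0019), *Avpr1a*, a vasopressin receptor (log2 fold change -0.77, SE 0.09, edgeR adjusted p = 1.91e-05), *Atp6v1c2*, a further pump subunit (log2 fold change -0.75, SE 0.13, edgeR adjusted p = 0.000291), and *Oxgr1*, the oxoglutarate receptor of type B cells (log2 fold change -0.69, SE 0.13, edgeR adjusted p = 0.000714). *Tfcp2l1*, a factor of collecting duct cells and the highest of the list in CPM not scaled by length, also fell (log2 fold change -0.36, SE 0.09, edgeR adjusted p = 0.00642). The summed level had a median of 1266 CPM in male controls, 982 in male mutants, 1660 in female controls and 1379 in female mutants.

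The next 4 lists are also from all mice together, where 5.86% of all genes were called lower. Principal cells, the neighbors of intercalated cells in the same ducts, gave 2 of 10 lower and 0 higher, with a median log2 fold change of -0.06, the called genes being *Aqp3* (log2 fold change -0.38, SE 0.09, edgeR adjusted p = 0.00368) and *Scnn1g* (log2 fold change -0.30, SE 0.05, edgeR adjusted p = 0.000316). *Aqp2*, their highest gene in CPM, had a log2 fold change of 0.10 (edgeR adjusted p = 0.669). Acid-base genes of other segments gave 3 of 10 lower and 0 higher, with a median log2 fold change of -0.22. The called genes were *Pck1* of ammonia production and gluconeogenesis, the highest in CPM (log2 fold change -0.66, SE 0.16, edgeR adjusted p = 0.00541), *Slc38a3*, a glutamine transporter (log2 fold change -0.55, SE 0.11, edgeR adjusted p = 0.00137), and *Car4*, a carbonic anhydrase (log2 fold change -0.50, SE 0.12, edgeR adjusted p = 0.00539). The call was lost without male controls 1 and 2 or female controls 1 and 4 or female mutants 1 and 2 in turn (edgeR adjusted p = 0.01 to 0.0123) for *Pck1*. It was lost without male control 4 or male mutants 1, 4 and 5 or female controls 4 and 5 or female mutants 2 and 5 in turn (edgeR adjusted p = 0.0103 to 0.0198) for *Car4* and without male control 4 (edgeR adjusted p = 0.0183) for *Aqp3*, whose call was also lost without the litter term (edgeR adjusted p = 0.0271). Proximal tubule genes gave 0 of 6 lower and 0 higher, with a median log2 fold change of -0.14, the highest in CPM being *Slc34a1* (log2 fold change -0.28, edgeR adjusted p = 0.105). Genes of the distal convoluted tubule and thick ascending limb gave 5 of 6 lower and 0 higher, with a median log2 fold change of -0.71, among them *Pvalb* (log2 fold change -1.26, SE 0.17, edgeR adjusted p = 4.29e-05), *Slc12a3* (log2 fold change -1.11, SE 0.14, edgeR adjusted p = 1.79e-05), *Slc12a1* (log2 fold change -0.73, SE 0.13, edgeR adjusted p = 0.000336), *Kcnj1* (log2 fold change -0.69, SE 0.09, edgeR adjusted p = 2.02e-05) and the highest in CPM, *Umod* (log2 fold change -0.42, SE 0.08, edgeR adjusted p = 0.00058).

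Macrophage and tubule injury genes rose in the same mutants, where 10.0% of all genes were called higher. Macrophage genes gave 0 of 10 lower and 10 higher, with a median log2 fold change of 1.67, with *Gpnmb* (log2 fold change 4.02, SE 0.74, edgeR adjusted p = 0.000638), *Lyz2*, the highest in CPM (log2 fold change 2.49, SE 0.33, edgeR adjusted p = 3.98e-05), *Itgam* (log2 fold change 2.36, SE 0.35, edgeR adjusted p = 0.000102) and *Mrc1* (log2 fold change 1.88, SE 0.29, edgeR adjusted p = 0.000121). Summed over the macrophage list, male controls had 128, 139.6, 147, 141 and 159.6 CPM and male mutants 697, 238, 430.0, 402 and 251 CPM. Female controls had 205, 168, 174, 162 and 174 CPM and female mutants 777, 523, 971, 182 and 279 CPM for that sum. Female mutant 4 lay among the female controls. Tubule injury genes gave 0 of 6 lower and 6 higher, with a median log2 fold change of 3.57, with *Havcr1* (log2 fold change 6.33, SE 0.57, edgeR adjusted p = 1.85e-06), *Krt20* (log2 fold change 5.13, SE 0.63, edgeR adjusted p = 1.81e-05), *Lcn2* (log2 fold change 4.60, SE 0.52, edgeR adjusted p = 9.56e-06), *Vcam1* (log2 fold change 2.54, SE 0.29, edgeR adjusted p = 8.85e-06) and the highest in CPM, *Spp1* (log2 fold change 1.77, SE 0.27, edgeR adjusted p = 0.000134). Summed over the injury list, male controls had 982, 822, 1037, 953 and 839.6 CPM and male mutants 9418, 1940, 3762, 3230 and 1812 CPM. Female controls had 1893, 2107, 2033, 2021 and 2312 CPM and female mutants 10198, 7899, 8907, 3071 and 2715 CPM for that sum. In each sex the mutants were above the controls. The part of these cells in the lower levels of the 10 genes was not tested.

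The 10 genes also varied together among mice of a group, described here without a test. After the mean of each group was subtracted, all 45 pairs had a positive correlation of log2 CPM over the 20 mice, from 0.208 to 0.940 with a median of 0.689, and a median of 0.668 over the 19 without female mutant 4. By the same measure the genes most like *Foxi1* over 20 mice were *Gm14420* (r = 0.893), *Zkscan3* (r = 0.890), *Akap8* (r = 0.890), *Per1* (r = 0.879), *Ddx5* (r = 0.879), *Prpf39* (r = 0.876), *Smco3* (r = 0.871) and *Son* (r = 0.862). Those most like the mean of the 10 were *Vegfa* (r = 0.952), *Gatm* (r = 0.942), *Slc22a29* (r = 0.939), *Tmem25* (r = 0.937), *Sirt4* (r = 0.934), *Abhd3* (r = 0.933), *Galnt11* (r = 0.932) and *Pbld2* (r = 0.932). Without female mutant 4 *Gm14420* and *Vegfa* still led, and *Tmem25* and *Pbld2* stayed among the 8 nearest to the mean. *Gatm*, *Slc22a29*, *Sirt4*, *Abhd3* and *Galnt11* did not, and *Smco3* and *Son* left the 8 nearest to *Foxi1*. These values are descriptions over mice that share litters. No value over pairs of all genes is set beside them, so they do not show that the 10 vary together more than other genes do.

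Promoters of 6 of the 10 genes matched the RefSeq table (GRCm38.p6); *Slc4a1*, *Slc4a9*, *Atp6v0d2* and *Rhbg* had no entry. The 250 bases before the RefSeq start were searched on both strands for the forkhead words TGTTTA and TGTTTG, which 2 of the 6 held, against 25.4% of 32536 distinct promoters of that length. *Foxi1*, *Slc26a4*, *Atp6v0a4* and *Rhcg* held none, and of these *Slc26a4* and *Rhcg* fell in all mice together. With so few promoters, 2 of 6 is near the share of all promoters. The 3 pump subunits are shown because *Atp6v1g3* and *Atp6v1b1* fell together in males and *Atp6v0a4* did not pass. They were picked with these results known, and a link between the words and the results was not tested. Capitals mark the words, which do not overlap; a match is a description of these letters. The windows are chr1:138273488-138273737 on the plus strand for *Atp6v1g3*, chr6:83742767-83743016 on the plus strand for *Atp6v1b1* and chr6:38124587-38124836 on the minus strand for *Atp6v0a4*. For *Atp6v1b1* the RefSeq start lies downstream of the GENCODE start given above, so the last bases of its window fall inside the gene by the GENCODE coordinates.
Atp6v1g3: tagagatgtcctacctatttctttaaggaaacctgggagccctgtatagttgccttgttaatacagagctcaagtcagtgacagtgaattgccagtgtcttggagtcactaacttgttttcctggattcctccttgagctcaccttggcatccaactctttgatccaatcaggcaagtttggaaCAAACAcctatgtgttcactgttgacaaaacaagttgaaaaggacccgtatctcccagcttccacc
Atp6v1b1: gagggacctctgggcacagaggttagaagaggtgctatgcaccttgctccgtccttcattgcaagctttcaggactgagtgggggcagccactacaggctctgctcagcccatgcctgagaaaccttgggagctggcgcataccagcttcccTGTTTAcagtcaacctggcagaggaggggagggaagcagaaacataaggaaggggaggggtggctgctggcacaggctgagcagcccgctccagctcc
Atp6v0a4: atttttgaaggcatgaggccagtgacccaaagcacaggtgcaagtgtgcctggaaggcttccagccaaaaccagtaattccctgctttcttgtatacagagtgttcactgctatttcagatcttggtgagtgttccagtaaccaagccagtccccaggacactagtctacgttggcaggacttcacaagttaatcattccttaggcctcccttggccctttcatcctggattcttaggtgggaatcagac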

How the data were processed

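The deposited values are raw read counts per gene for 20 kidney libraries, 1 per mouse. Per the submitters' processing notes and the study's methods, the authors used fastp 0.23.2 for trimming and STAR 2.7.10b for alignment (mm10), and the counting step and its strand setting are not given in the sources used here. Groups came from the sex and genotype labels, and KBW from the labelled weights. No pair of libraries of a group agreed within sampling noise. Counts were tested with edgeR 4.0.16 in R 4.3.3 (TMM, filterByExpr, quasi-likelihood test, litter as a covariate, Benjamini-Hochberg over all genes, called below 0.01), with DESeq2 1.42.0 as an alternative. The grouping used by the low count filter in the fit of all mice, by genotype, was settled after a first fit had been seen; filtering by the 4 groups was run beside it. Each standard error (SE) is the absolute log2 fold change divided by the square root of the edgeR F statistic. log2 CPM used a prior count of 2. Correlations used 100000 permutations, or every permutation where 8 mice or sex-centered values were used. The steps were tested on simulated counts, where the interaction and the slope on KBW passed for only a small part of the changed genes. Named genes are the 10, *Pkd2*, in each of 9 lists up to 4 called genes with the largest change and the gene highest in CPM, pump partners and the 8 most similar genes. The 10 genes and the lists were chosen with earlier results of these data known. Some results for the erythroid list are not reported here. Coordinates and exon lengths are from GENCODE M21.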

Additional observations from a re-analysis of the deposited data

Results flagged for a closer look

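In 4 of 44 combinations of a gene, *Pkd2* included, and a group of 5 mice, 1 mouse lay far from the other 4. Chance gives about 1 such mouse in 20 combinations. All were controls. *Slc4a9* in female control 2 was 175 CPM, above the 128 to 139 CPM of the other female controls. *Atp6v1g3* in male control 3 was 115 CPM, above the 77.0 to 87.3 CPM of the other male controls. *Atp6v0d2* in male control 5 was 46.7 CPM, below the 52.4 to 53.6 CPM of the other male controls, and *Atp6v0a4* in female control 3 was 339 CPM, below the 391 to 412 CPM of the other female controls.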

How the results depend on the processing

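The count of 8 genes lower in all mice together stayed within 7 to 8 over the alternatives and the fits that left out 1 mouse (7 to 8); it was 8 with the filter by 4 groups, an alternative chosen after seeing the data. In males the count was 1 to 8 when 1 mouse was left out, 5 with all 20 mice in 1 fit, 6 with at least 10 counts in every mouse and 8 with DESeq2, against 7; the calls over all genes were 878, 1016 and 2001 in these last 3, against 1185. In females it was 0 to 3 when 1 mouse was left out, 2 with DESeq2, 1 with no filter on low counts, 1 without the litter term and 3 with all 20 mice in 1 fit, against 0. Over all genes the female calls were 928 with DESeq2, 230 with no filter, 172 without the litter term and 856 in the single fit, against 92. For males against females in controls it was 2 to 5 when 1 mouse was left out, 7 with DESeq2, 7 without the litter term and 2 with all 20 mice in 1 fit, against 4. In mutants it was 0 to 2 when 1 mouse was left out and 2 with all 20 mice in 1 fit, against 1. The slope on KBW gave 5 with DESeq2, against 0. Signs turned only for estimates that were not called. When 1 mouse was left out, *Atp6v0a4* in males ran over -0.0677 to 0.00781, and in males against females among mutants *Slc26a4* ran over -0.24 to 0.0696 and *Atp6v0a4* over -0.0420 to 0.15. The interaction ran over -0.13 to 0.15 for *Foxi1*, -0.0171 to 0.36 for *Slc26a4*, -0.23 to 0.0295 for *Atp6v1g3*, -0.12 to 0.11 for *Atp6v0d2*, -0.15 to 0.15 for *Atp6v1b1* and -0.19 to 0.14 for *Rhbg*. For *Atp6v1b1* it was -0.0141 with DESeq2 size factors, -0.0145 with DESeq2 and -0.00478 with at least 10 counts in every mouse. Of the other values for single genes, 584 kept their direction and side of the threshold under another setting, 23 newly passed and 6 no longer passed; with 1 mouse left out these numbers were 1439, 10 and 64. Fits that left out 1 mouse had fewer mice. Where litter was a term in a genotype or sex comparison, some mice were alone in their group and litter. Leaving out such a mouse also left the mice it was compared with in that litter without a partner. Beyond this the cause was not tested. No paired analysis was possible because the labels carry no replicate numbers that match a mutant to a control; replicate numbers here follow sample order. Mice were matched by litter instead, as a term in the genotype and sex comparisons and in the differences within each litter.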
